A study of Mus musculus with 4 samples.

Results

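CTCF occupancy was examined at the 10 listed genes that encode CTCF itself and parts of the cohesin machinery (Ctcf, Rad21, Smc3, Stag1, Pds5a, Pds5b, Nipbl, Wapl, Esco1 and Esco2), out of 21938 protein-coding genes on chromosomes 1 to 19, X and Y. They were chosen by name, and for each gene the CTCF peak summits within 1000 bp of a transcription start site (TSS), inside the gene and up to 50 kb outside it were collected. The data are ChIP-seq, which sequences DNA that an antibody, here against CTCF, pulls down with its protein. The material was left cerebral cortex of female B6CASTF1/J mice aged 2 months, the hybrid offspring of the C57BL/6J and CAST/EiJ strains. A pool I and a pool J, each of 4 biosamples with 2 libraries, were the only groups, so there is no treatment, genotype or time to compare. Each pool mixes animals and all cell types of the cortex, and the reads of both alleles are in 1 value. Peak lists carry no markers by which the tissue could be checked.

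CTCF is a zinc-finger protein that binds an asymmetric DNA motif and stops cohesin as cohesin extrudes chromatin loops. Cohesin is a ring that SMC1 and SMC3 form with the kleisin RAD21, to which a STAG subunit, STAG1 or STAG2, binds. NIPBL helps to load it and drives extrusion, PDS5A and PDS5B regulate its residence on DNA, WAPL releases it, and ESCO1 and ESCO2 acetylate SMC3. Loops form mostly between CTCF sites whose motifs point at each other, so the strand of each site is given below.

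The authors merged the libraries of each pool into 1 alignment, so values exist per pool and not per library. The conservative list, with pool I and pool J as the replicates, held 44672 peaks. The optimal list from the pooled reads held 50827, the list of pool I 82131 and the list of pool J 52658. Pool I thus gave the longest list. The signal value of a peak and its score are the authors' own, and the unit of the signal is not stated. To compare lists, a signal is also given as its percentile, the percentage of peaks in the same list with lower signal. With 1 condition and 2 pools, counts are set beside those of all protein-coding genes without a test.

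A motif was learned from the strongest peaks, 1 strand only being shown, and it served to find the best match within 50 bp of each summit. Capitals mark the positions that carry the most information in it:
learned motif: tggCCaccAGGgGGCgctag
A match is a score above the value that 1% of flanking sequence windows reach, which was 11.9. The sequences below are from the C57BL/6J reference GRCm38.p6, read 5′ to 3′ on the strand of the match, so CAST/EiJ alleles are not shown. Capitals mark the 20 bases aligned to the motif. They are shown because these are the best matches at the promoter summits on which the results turn. Stag1, Pds5b, Smc3 and Esco1 had a match, in each case with the motif on the coding strand of the gene, and the first 3 are printed:
Stag1 (chr9:100643565-100643594, plus strand, score 24.18): cagcgCGGCCAGCAGAGGGCGGTCGggacc
Pds5b (chr5:150673685-150673714, plus strand, score 21.16): ccgtgCGGCCGGTAGGGGGCGCTGAgaacc
Smc3 (chr19:53599901-53599930, plus strand, score 15.63): gctcgGAACCAGCAGGAGGCGCTCTgagct
The promoter summits of Pds5a, Rad21, Nipbl and Ctcf had no match, and their closest stretches were these:
Pds5a (chr5:65696923-65696952, minus strand, score 11.4): ttttcTGACCGATAGAGGCCGGTAGaggac
Rad21 (chr15:51991872-51991901, minus strand, score 9.2): ctccgTGGCCAATAGGTGGCTGGTCcagag
Nipbl (chr15:8445450-8445479, plus strand, score 8.59): ggataAGGCCTGTAGGCGACGCTGTgcaag
Ctcf (chr8:105636836-105636865, minus strand, score 8.36): cagcaGGGACGGTAGAGGGAGACAAacacc
The Pds5a stretch fell just under the threshold, and the other 3 were further below it.

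In the conservative list 8 of 10 genes carried a CTCF summit at most 1000 bp from a TSS, against 20.8% of all protein-coding genes. The genes with such a promoter summit were Ctcf, Rad21, Smc3, Stag1, Pds5a, Pds5b, Nipbl and Esco1, and those without were Wapl and Esco2. In the optimal list 9 of 10 had one (23.8% of all genes), in pool I 9 of 10 (37.4%) and in pool J 7 of 10 (25.2%). Within 500 bp the count was 6 of 10 (15.7% of all genes), and within 5000 bp it was 8 of 10 (38.8%). The strongest promoter summits of the 8 genes had a median percentile of 84.2, compared with 47.5 over the 4556 genes that had a promoter summit. They ranged from percentile 20.2 at Rad21 to 99.5 at Stag1.

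**Figure D1:**
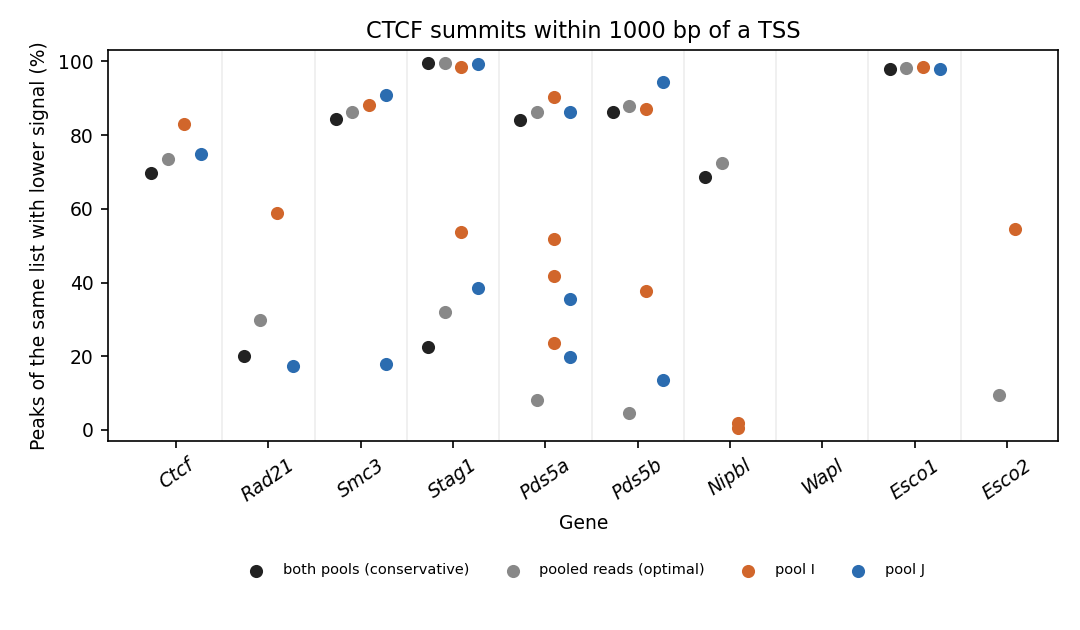
Each point is a CTCF summit within 1000 bp of a TSS of the gene on the x axis, and the y axis is the percentage of peaks of the same list with lower signal, coloured by list. Stag1 and Esco1 lie at 98.0 or above in every list with their strongest summit, Rad21 lies between 17.4 and 58.8, and Wapl has no point.

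All 10 promoters were CpG-rich, defined as a GC content of at least 50% and an observed-to-expected CpG ratio of at least 0.6 within 500 bp of the primary TSS, a class that held 46.0% of protein-coding genes. Among CpG-rich promoters 30.8% had a summit in the conservative list, the share to read beside 8 of 10, and among other promoters 12.2% did. The median GC content was 68.4% for the 10 genes and 55.2% for all genes, and the median CpG ratio was 0.93 against 0.57. Pds5a had the highest values, 76.9% GC and a ratio of 1.12, above 99.6% and 99.9% of genes. Esco2, which is the sister chromatid cohesion acetyltransferase of dividing cells, had the lowest, 52.1% and 0.75. Wapl, without a summit, had 71.1% and 0.91, so it sat among the genes that had one.

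**Figure D2:**
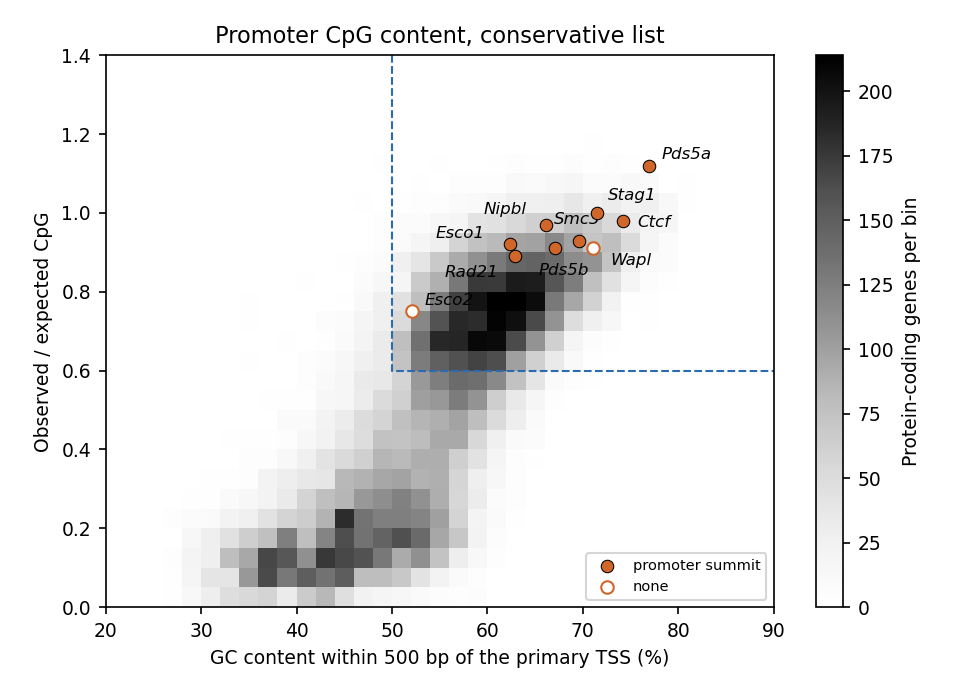
GC content (x axis, %) and observed-to-expected CpG (y axis) within 500 bp of the primary TSS, with all protein-coding genes as grey bins and the 10 genes as points, filled where the conservative list has a promoter summit. The dashed lines bound the CpG-rich class, and Esco2 at 52.1% and 0.75 is the point nearest to them.

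The gene of CTCF itself, Ctcf (chr8:105636568-105682922, plus strand), had its promoter summit in intron 1, 260 bp downstream of its TSS. The signal was 412.6 in both the conservative and the optimal list, 269.0 in pool I and 147.2 in pool J, with percentiles of 69.7, 73.5, 83.0 and 75.0. It was therefore above the middle of every list. The 101 bp around this summit were 79.2% GC with 16 CpG dinucleotides, and are shown on the gene strand because they hold many CpG and no motif match, with the best-scoring stretch in capitals:
Ctcf summit window (chr8:105636789-105636889, plus strand): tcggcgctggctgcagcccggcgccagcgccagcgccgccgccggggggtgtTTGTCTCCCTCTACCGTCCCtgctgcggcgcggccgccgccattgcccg
The annotated start of Agrp, which encodes the agouti-related neuropeptide, lies on the opposite strand 554 bp from the summit, and that of the lincRNA Gm5914 lies 511 bp from it. These TSSs share the window, so the summit cannot be assigned to 1 of them.

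Further in, Ctcf had 4 other summits at percentiles of 0.1, 0.5, 29.3 and 56.6, none with a match. The weakest pair lay 11654 and 11857 bp from the TSS in intron 2, in sequence that the reference marks as repeat. Their intervals overlap, and both carried the same values, 51.4 in pool I and 18.8 in pool J. The optimal, pool I and pool J lists each had 1 summit there, so the same site may enter the totals below more than once. Outside the gene there were 7 summits in the conservative list, more than 85.1% of protein-coding genes had. The strongest of these was 31441 bp past the gene end, with a signal of 480.6 at percentile 79.8 and a match score of 21.07 on the strand of the gene.

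A stronger site near Ctcf was missing from the conservative list. The optimal list had a summit 14013 bp upstream of the TSS with a signal of 637.2 at percentile 98.9. In pool I its signal was 400.6 at percentile 99.8, and in pool J it was 243.1 at percentile 96.4. The match scored 24.52 and was the best beside any summit described here, on the strand of the gene:
Ctcf upstream site (chr8:105622558-105622587, plus strand): agctgTCGCCACCAGGGGGCAGCAGaactg
In the ranked list of both pools this peak had an irreproducible discovery rate (IDR, the estimated share of irreproducible peaks down to that rank) of 0.125, above the authors' threshold of 0.05. It was thus among the strongest peaks of each pool and still not in the list of peaks shared by the pools.

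The ring subunits had promoter summits of very different strength. Rad21 (chr15:51962240-51991747, minus strand), the kleisin, had the weakest of the 8, 153 bp upstream of the TSS and 97 bp wide. Its signal was 127.3 in the conservative and optimal lists, 102.0 in pool I and 23.6 in pool J, at percentiles of 20.2, 29.9, 58.8 and 17.4. The IDR of this peak was 0.0361, so it was lost at a threshold of 0.01. It was also the sole summit within 50 kb of Rad21 in the conservative list, and no summit lay inside the gene. The window around it had 6 CpG and is shown on the gene strand as that of the weakest promoter summit, with the best-scoring stretch in capitals:
Rad21 summit window (chr15:51991850-51991950, minus strand): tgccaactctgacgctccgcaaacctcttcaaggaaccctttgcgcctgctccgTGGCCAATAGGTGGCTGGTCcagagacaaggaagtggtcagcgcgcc

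Smc3 (chr19:53600398-53645833, plus strand), which encodes the SMC subunit that ESCO enzymes acetylate, had its summit 484 bp upstream of the TSS. The signal was 509.5 in the conservative and optimal lists, 302.4 in pool I and 210.2 in pool J, at percentiles of 84.3, 86.3, 88.1 and 90.8. Every list placed it at percentile 84.3 or above, and the match lay 1 bp from the summit. AC137853.1, a transcript annotated as still to be verified by experiment, starts on the opposite strand 503 bp from it. In the window around it the match stands in sequence with 6 CpG, fewer than at Ctcf:
Smc3 summit window (chr19:53599864-53599964, plus strand): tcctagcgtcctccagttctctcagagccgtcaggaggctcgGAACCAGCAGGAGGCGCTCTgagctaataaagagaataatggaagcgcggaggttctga
Strong summits stood on either side of Smc3. One 21273 bp upstream had a signal of 511.1 at percentile 84.5 and a match of 21.28 on the opposite strand, and another 48520 bp downstream of the TSS, past the gene end, had 575.7 at percentile 93.7 and a match of 20.26 on the gene strand. The summit inside the gene, in intron 21, was weaker, with 231.0 at percentile 44.2, and its match was on the opposite strand.

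Stag1 (chr9:100597798-100959375, plus strand) had the strongest promoter summit of the 10 genes. STAG1 is 1 of the STAG subunits of somatic cohesin. The summit lay between the TSSs, 42 bp upstream of the nearest and 123 bp downstream of the primary TSS, in the 5′ UTR of the primary transcript. Its signal was 660.8 in the conservative and optimal lists, 372.3 in pool I and 288.1 in pool J, at percentiles of 99.5, 99.6, 98.5 and 99.4. It ranked 225 among the 44672 conservative peaks and carried the highest match score among promoter summits, 24.18. By that rank and its chromosome, this peak was among those from which the motif was learned. A weaker summit 550 bp upstream, with a signal of 133.9 at percentile 22.4, had no match. The annotated gene span begins 45650 bp upstream of the first TSS of the basic annotation, so both of these summits count as inside the gene as well.

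Stag1 is the longest of the 10 genes, 361578 bp, and its 3 further summits inside the gene lay far from the start. They were 117087, 267111 and 273869 bp from the primary TSS, with signals of 163.2, 166.5 and 449.5 at percentiles of 30.7, 31.4 and 75.2. Each had a match, and each match was on the strand opposite to the gene, facing the promoter site. Downstream of the gene another summit at percentile 32.0 had the same orientation.

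The PDS5 paralogues both had strong promoter summits, but of different kinds. At Pds5b (chr5:150673739-150810690, plus strand) the summit was 35 bp upstream of the primary TSS, with a signal of 521.9 in the conservative and optimal lists, 295.3 in pool I and 228.5 in pool J. Its percentiles were 86.2, 87.9, 87.0 and 94.4, and its match scored 21.16 in a window of 78.2% GC with 16 CpG. At Pds5a (chr5:65605721-65698273, minus strand) the summit was 918 bp downstream of the nearest TSS and 1230 bp from the primary one, in intron 1. Its signal was 508.9 in the conservative and optimal lists, 316.5 in pool I and 191.4 in pool J, at percentiles of 84.2, 86.2, 90.4 and 86.3. Its window was 48.5% GC with 4 CpG, although the Pds5a promoter was the most CpG-rich of the 10.

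Nearer to the Pds5a starts the summits were weaker than this one in each list that had them. The optimal list had one 131 bp upstream of the nearest TSS at percentile 8.2, with an IDR of 0.0523 in the ranked list of both pools, just past the threshold. Pool I had 3 and pool J had 2 between 127 and 345 bp upstream, at percentiles from 19.9 to 51.8. At Pds5b, an internal TSS had a weak summit 490 bp downstream in the optimal list (percentile 4.7) and in both pools (37.7 in pool I, 13.5 in pool J), which the conservative list lacked. Inside Pds5b, summits in introns 1 and 2, at percentiles of 73.7 and 57.5, both had a match on the strand opposite to the gene. Upstream, 7859 bp from the TSS, a summit at percentile 83.6 also had its match on the opposite strand, pointing away from the gene.

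Wapl (chr14:34673928-34747983, plus strand), which encodes the release factor, had no promoter summit in any of the 4 thresholded lists. In the ranked lists, which also hold peaks below the threshold, a peak 59 bp upstream of the TSS had a signal of 37.9, with an IDR of 0.682 for both pools and 0.271 for the pooled reads. In pool I alone the strongest such peak had a signal of 31.1 and an IDR of 0.129, and in pool J 8.7 and 0.444. A peak was therefore called at the Wapl start in every ranked list and passed the threshold in none. The conservative summit nearest to the primary TSS was 52751 bp away. Inside the gene only the pool I list had summits, 6470 and 44045 bp from the primary TSS in introns 2 and 4, at percentiles of 32.4 and 23.0, both in marked repeats. The 2 conservative summits within 50 kb were both downstream, at percentiles of 82.9 and 68.3, the first with a match on the opposite strand. The lncRNA 5830448L01Rik starts 165 bp from Wapl on the other strand.

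Nipbl (chr15:8290617-8444463, minus strand), which encodes the loader, met the promoter rule by 1 bp. Its summit lay 999 bp upstream of the TSS in the conservative and optimal lists, with a signal of 404.2 at percentiles of 68.6 and 72.5. The same peak had its summit 1002 bp upstream in pool I, with 281.4 at percentile 84.8, and 1001 bp upstream in pool J, with 127.8 at percentile 69.9. Pool J therefore counted as having no promoter summit at Nipbl, and pool I counted through weaker summits at 365 and 603 bp, at percentiles of 0.4 and 1.8. The next summit outside the window was 2114 bp upstream, at percentile 5.4. The strongest summit in the gene was 62071 bp from the TSS in intron 1, with 417.3 at percentile 70.5, and its match was on the opposite strand. The other 3 inside Nipbl had no match and percentiles of 9.2, 11.7 and 28.8.

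Esco1, on the minus strand, had the second strongest promoter summit, 73 bp upstream of the TSS. ESCO1 acetylates SMC3 through the cell cycle. The signal was 623.5 in the conservative and optimal lists, 370.7 in pool I and 257.8 in pool J, at percentiles of 98.0, 98.3, 98.4 and 98.0. The match scored 18.68 and lay on the strand of the gene, in a window of 74.3% GC with 13 CpG. The 3 summits downstream of the gene, at percentiles of 74.2, 21.3 and 29.7, all had a match on the opposite strand. A still stronger summit 7384 bp upstream was in the optimal list, with a signal of 693.6 at percentile 99.9, in pool I with 409.0 and in pool J with 284.1. The conservative list lacked it, with an IDR of 0.15 for both pools, and its best match of 11.21 was just under the threshold.

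Esco2 (chr14:65819038-65833994, minus strand) had no promoter summit in the conservative list or in pool J. The optimal list had one 84 bp downstream of the TSS, with a signal of 80.0 at percentile 9.4. Pool I had it at 80 bp, with 85.9 at percentile 54.4. No peak of the ranked list of pool J, at any IDR, had its summit within 1000 bp of the TSS, so of the pools only pool I had this summit. The 3 conservative summits around Esco2 were 37569 and 11472 bp upstream and 54908 bp downstream of the TSS, at percentiles of 81.5, 74.9 and 67.4.

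The strong sites upstream of Ctcf and Esco1 were compared with the whole optimal list, a comparison made after their values were seen. Of the 508 peaks at percentile 99 or above, 20.5% were not in the conservative list, and the Esco1 site was 1 of these. Of the 4574 between percentiles 90 and 99, 0.853% were not, and the Ctcf site was 1 of these. With rank 552 at percentile 98.9 it lay at the upper edge of this class, next to the class with the share of 20.5%. How the peaks left out were spread within the class was not examined, so 0.853% may not be the share for peaks of its rank. Below percentile 10 the share was 82.6%. All 104 and 39 strong peaks left out were in the ranked list of both pools, where they had not met the IDR threshold. The Ctcf and Esco1 sites had been noticed for their high signal, so that signal shows no link with absence from the conservative list. The signal per pool of the other strong peaks left out was not examined.

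Inside genes, 6 of 10 had at least 1 summit in the conservative list, against 45.8% of protein-coding genes. In the optimal list it was 7 of 10 (48.6%), in pool I 8 of 10 (59.2%) and in pool J 6 of 10 (49.4%). The 10 genes had a median length of 60205.5 bp, against 17425 bp over all genes, and Esco2 with 14957 bp was the shortest. Per 100 kb of gene they had 1.80 summits, 18 in all, and all protein-coding genes had 2.29. Outside the gene and within 50 kb, 10 of 10 had a summit (83.3% of all genes), with a median of 3 for both the 10 genes and all genes. For Rad21 that summit is the promoter one.

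In all, 52 conservative summits lay in or within 50 kb of the 10 genes, 35 of them with a match. That is 67.3%, compared with 72.7% over the whole list. At the stricter threshold, passed by 0.1% of flanking windows, 5 of the 52 remained, and 17.7% of the whole list. Those 5 were the promoter summits of Stag1 and Pds5b, the summits on either side of Smc3 and the one downstream of Ctcf.

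**Figure D3:**
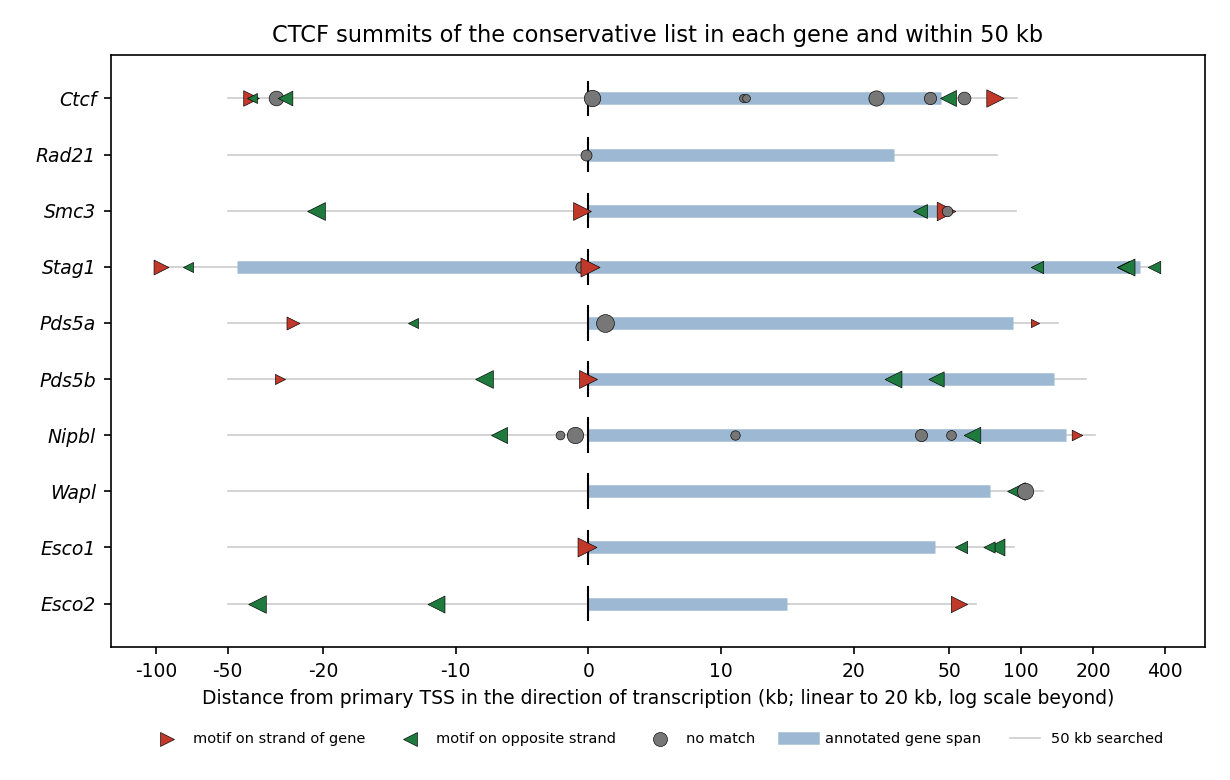
Conservative summits in and within 50 kb of each gene by distance from the primary TSS (x axis, kb, linear to 20 kb and logarithmic beyond, in the direction of transcription). Triangles point right where the motif is on the strand of the gene and left where it is on the other, circles have no match, and larger symbols have a higher percentile. The 4 promoter matches all point right and the 7 matches further inside the genes all point left.

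The strand of each match was then set against that of the gene. Of the 8 strongest promoter summits 4 had a match, at Smc3, Stag1, Pds5b and Esco1, and 46.5% of the 4556 genes with a promoter summit did. The 4 matches were all on the strand of the gene, which held for 57.6% of the 2120 genes with a match at the strongest promoter summit. With 4 cases that share is only a description. Of the 8 strongest promoter summits 6 were upstream of the nearest TSS, against 63.8% of the 4556 genes with a promoter summit.

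The 14 summits inside the genes but away from the promoters held 7 matches, 3 in Stag1, 2 in Pds5b and 1 each in Smc3 and Nipbl. All 7 were on the strand opposite to the gene, against 50.3% of 16099 such summits in protein-coding genes. In Stag1, Pds5b and Smc3, whose promoter match is on the gene strand, 6 of 6 pointed back at the promoter. Over all genes with a promoter match on the gene strand the share was 48.7%. With 6 sites in so few genes, this is only a description. The uniform orientation was not kept in every list: 8 of 9 such matches were on the opposite strand in the optimal list, 7 of 8 in pool J and 10 of 16 in pool I. Promoter matches were 4 of 4 on the strand of the gene in each list. They were the same 4 sites each time, so this repetition adds no evidence. In the flanks 24 of 29 summits had a match, 9 on the strand of the gene and 15 opposite.

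Several sites away from the promoters had nearly the same sequence, and the best matches that hold the 11 bases CAGAAGAGGGC are shown to make that visible:
Pds5a upstream (chr5:65711357-65711386, plus strand): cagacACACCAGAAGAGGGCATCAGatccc
Pds5a downstream (chr5:65583997-65584026, minus strand): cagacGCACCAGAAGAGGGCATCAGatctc
Pds5b upstream (chr5:150643548-150643577, plus strand): cagacACACCAGAAGAGGGCGCAAGatctc
Nipbl downstream (chr15:8273181-8273210, minus strand): aagacACACCAGAAGAGGGCGCCAGatccc
Stag1 upstream (chr9:100548498-100548527, plus strand): ctcagAGACCAGAAGAGGGCACCAAattct
Stag1 downstream (chr9:101002242-101002271, minus strand): tagggTGGCCAGAAGAGGGCATCAGctacc
Smc3 intron 21 (chr19:53638242-53638271, minus strand): cctgtGTGCCAGAAGAGGGCATCATatccc
In rodents many CTCF sites lie in copies of the B2 short interspersed element, and the masking used here marks a repeat without naming its family. Of these 7 summits 6 lay in marked repeats, and their percentiles were between 2.5 and 53.3. The word, on either strand within 50 bp of the summit, was found at 13.5% of the 52 summits and at 11.6% of the whole conservative list. Over that list 53.6% of the summits in repeats held it and 1.15% of the others. Altogether 12 of the 52 summits were in repeats, none of them among the 9 promoter summits, and 19.9% of the whole list was.

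The lists of the single pools differed in length near these genes too, with 98 summits in pool I and 66 in pool J, of which 29 and 15 were inside genes and away from promoters. A conservative peak has a counterpart in both pools by construction, which held for 44672 of 44672 peaks, so its presence in both is no measure of agreement. Of the 52 conservative summits, 51 overlapped a peak of the optimal list, and the exception was 11009 bp into Nipbl at percentile 9.2. Near these genes, peaks in both lists had the same interval, summit and signal, so this overlap is no measure of agreement either. Signal was higher in pool I at all 52 summits, as it was in general: over the conservative peaks, the log2 of the pool I signal divided by the pool J signal had a median of 1.09 and an SD of 0.39. With the peaks cut into 5 classes of rising signal, the class medians differed from it by 0.29, 0.25, 0.08, -0.17 and -0.42. Relative to the median, the log2 ratio was -0.72 at the main Stag1 summit, -0.72 at Pds5b, -0.57 at Smc3, -0.57 at Esco1, -0.37 at Pds5a, -0.22 at Ctcf and 0.05 at Nipbl. The 5 summits of highest signal were thus the furthest below the median. They fell in the class of highest signal, whose median was at -0.42 with an SD of 0.14, so Stag1 and Pds5b were low for their class too. Rad21 was 1.02 above the overall median, and its signal class, the next to weakest, had a median 0.25 above and an SD of 0.30. Its promoter peak was thus the most uneven between the pools, and whether the depth or the background of a pool plays a part was not tested.

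**Figure D4:**
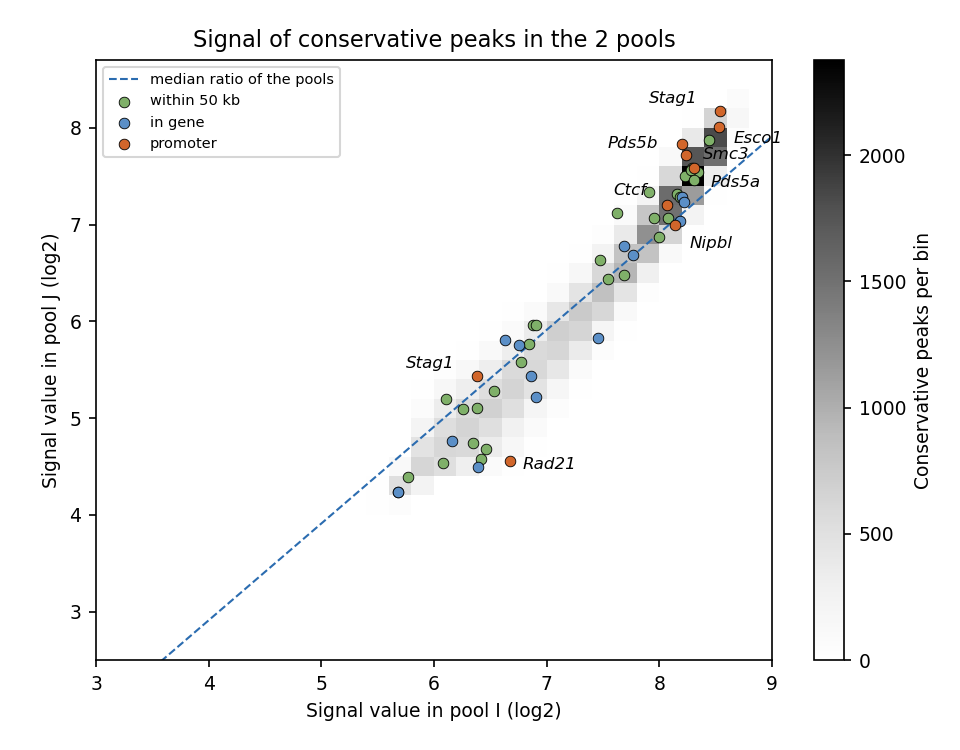
Signal value in pool I (x axis, log2) and pool J (y axis, log2) of each conservative peak, as grey bins for the whole list and as points for summits at promoters, in the genes and within 50 kb. The dashed line is the median ratio of the pools, and the Rad21 promoter lies furthest below it among the promoter summits.

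Of 31 other genes of the pathway, 7 had a promoter summit in the conservative list, against 20.8% of all protein-coding genes. Of the 31 promoters 26 were CpG-rich, those of the 7 genes among them. The count to read beside the 30.8% of all CpG-rich promoters is thus 7 of 26. The optimal list gave 9 of 31 (23.8% of all genes) and pool J 9 of 31 (25.2%). Pool I gave 17 of 31 (37.4% of all genes). The share among CpG-rich promoters was computed for the conservative list only. Of the other ring subunits, Smc1a, the partner of SMC3, had a summit at percentile 19.1 and Stag2 one at percentile 70.3 with a match on the gene strand, while Smc1b, Stag3, Rec8 and Rad21l, all of which act in meiosis, had none. Of the genes for loading, cohesion and release, Sgo1, the shugoshin that protects centromeric cohesion, had one at percentile 33.6, and Mau2, Cdca5, Hdac8, Sgo2a, Espl1 and Pttg1 had none.

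Among the CTCF paralogue and partner factors, Patz1, a zinc-finger factor, and Chd8, a chromatin remodeller, had summits at percentiles of 82.2 and 84.9, and Ctcfl, Zfp143, Maz, Yy1 and Vezf1 had none. Of 11 genes, those of condensin and SMC5/6 together with Smchd1, the condensin genes Smc4 and Ncapd3 had summits at percentiles of 35.5 and 20.1. The median percentile of the 7 genes was 35.5, compared with 84.2 for the 8 genes above and 47.5 for all. Of the 7 genes 2 had a match at the promoter summit, Stag2 on the strand of the gene and Patz1 on the opposite strand. Stag1 and Stag2 thus both had a promoter summit with a match on the strand of the gene, at percentiles of 99.5 and 70.3.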

How the data were processed

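The authors deposited CTCF peak lists on mm10 in narrowPeak form, of which the 4 thresholded by IDR were used for counts and the 4 ranked ones for values per pool and below the threshold. Per the deposited notes, the lists came from both pools as replicates, from pooled reads and from each pool. The score deposited by the authors is a scaled IDR up to 1000, with 540 the lowest in the thresholded lists. The signal deposited by the authors has no stated unit. The ranked lists deposited by the authors give the IDR as −log10. The summit offset in the deposited lists was added to the peak start. The aligner and peak caller, not given in the sources used here, are unnamed, as is the control. Read depth is unknown.

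TSSs came from the GENCODE M21 basic annotation on GRCm38.p6, and the primary TSS is that of the principal transcript. Where 2 lists are compared, peaks share at least 1 bp. The peaks that the optimal list has and the conservative list lacks were found by identical interval and summit, a comparison chosen after seeing the data, as was the 11-base word, the one most often shared by 31 of the 35 matches, those of Esco1 being left out. The 20-base motif was started from the 8-base word most over-represented at the 1000 strongest conservative peaks of odd-numbered autosomes, and tested on simulated data. Soft-masked bases were called repeats. The genes, the 31 other pathway genes and all rules were chosen with earlier results of these data known. All 10 genes are named, of the other pathway genes those with a conservative promoter summit, by group those without, and genes starting within 1000 bp of a member TSS or promoter summit. Tables were made in Python 3.11.15 with pandas 2.3.3 and numpy 2.4.6, and figures with matplotlib 3.10.9. Alternatives covered the list, the IDR threshold, the windows, the TSS set, the motif threshold and the CpG rule.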

Additional observations from a re-analysis of the deposited data

How the results depend on the processing

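Across 35 alternative settings of 6 results, 31 values stayed within 1.5 times the main count or close to the main percentile, and 4 moved. The summits within 50 kb outside the genes, 34 in the conservative list, numbered 60 in the pool I list and 19 within 25 kb. The summits with a motif match, 35 of 52, numbered 55 of 98 in the pool I list and 5 of 52 at the stricter motif threshold. The count of genes with a promoter summit ran from 6 within 500 bp to 9 in the optimal and pool I lists. An IDR of at most 0.01 left 7, without Rad21, and the primary TSS alone left 7, without Pds5a. CpG-rich promoters were 9 under either other rule. No paired analysis was possible because no result comes from a test, and no value without a library could be computed because both libraries of a pool share 1 alignment. Without read counts no limit of detection can be given for Wapl or Esco2.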
